A study of Oryza sativa with 9 samples.

Results

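OsCOMT (Os08g0157500) encodes the caffeic acid O-methyltransferase of rice, an enzyme that adds methyl groups to lignin precursors and that can also carry out the last step of melatonin synthesis. Leaves of an OsCOMT mutant were compared with leaves of plants that overexpress the gene (OE), and leaves of the unmodified genotype (WT) served only to show which of the 2 genotypes departed when a gene differed. The age label is the same for all plants (85 days from sowing), and each genotype had 3 RNA libraries. The sample titles of the OE and WT libraries share a suffix that the mutant titles do not carry. What it marks is not given in the sources used here, so anything it stands for cannot be told apart from the mutant genotype in the comparisons that follow. The lesion in the mutant, the promoter of the overexpression construct, the cultivar, the hour of sampling and the number of independent lines are not given in the sources used here, so each genotype stands for the plants sampled under its label. The comparison covers 19850 of the 37858 genes in the table, those that averaged 1 FPKM or more over the 9 libraries. FPKM counts the sequenced fragments of a gene relative to its length and to the library's depth.

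A leaf at this age imports nitrogen and water, fixes carbon and exports sugar, and many of the genes for these tasks cycle through the day. Rice clock genes fall into those that peak around dawn, such as CCA1, and those that peak later, such as PRR1 and LUX. Monolignols are built from phenylalanine by a chain of enzymes in which OsCOMT acts late, and the same chain supplies flavonoids through 4-coumarate:CoA ligase and chalcone synthase.

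Library totals, recovered from the deposited values, were 10674819 to 11122792 reads in the mutant, 10795517 to 11809530 in OE and 11244242 to 11727127 in WT leaves. Mutant libraries lay apart: on principal component 1 (72.2% of the variance) they scored between -88.6 and -72.6, while OE libraries scored between 39.6 and 42.5 and WT libraries between 26.9 and 46.3. OE replicate 1 scored 2.5 on the second component (9.1% of the variance), against -31.8 and -29 for the other OE libraries. The leaf identity of the libraries was checked on marker genes: the antenna gene CAB1R stood at 2085 to 3034 FPKM in the mutant and OE libraries, and the meristem genes OSH1 and OSH15 at 0 to 0.0366 FPKM. The grain storage genes GLUA2 and GLUA1, also markers of other organs, were not absent. In these libraries they stood at 5.36 to 8.25 FPKM and 1.13 to 2.38 FPKM. The labels do not say whether the 3 libraries of a genotype came from separate plants. The p-values weigh each difference against the spread between libraries within the 3 genotypes, which need not be the spread between plants.

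The targeted gene was read first. OsCOMT had 226, 398 and 458 FPKM in the mutant libraries, against 1945, 3162 and 2823 FPKM in the OE libraries. WT leaves had 259, 237 and 228 FPKM, so the mutant and WT ranges met and every OE library stood far above both. The difference between mutant and OE was -2.90 ± 0.27 (SE) on the log2(FPKM + 1) scale, with an adjusted p of 3.3e-05 in limma, a linear model fitted over all genes. Against WT the OE leaves passed (adjusted p = 0.00043) and the mutant leaves did not (adjusted p = 0.15). The lesion is not given, so the transcript level checks the OE label but not the mutant label. On the same chromosome, the nearest tested gene before OsCOMT was higher in the mutant (8.58, 10.4 and 13.5 FPKM, against 6.44, 4.7 and 5.95 FPKM in OE; adjusted p = 0.0033), and the nearest one after it did not pass (2.32, 4.54 and 3.79 FPKM in the mutant, against 1.23, 4.61 and 2.21 FPKM in OE; adjusted p = 0.35, and 0.044 without OE replicate 2). The identifier after that is CCA1, described below with the clock genes.

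Between mutant and OE leaves, 8622 of 19850 genes passed limma at an adjusted p under 0.05, which is 43.4% of the genes tested. Of these, 4067 were higher in the mutant (20.5% of the genes tested) and 4555 were lower (22.9%), and these shares are the background against which every gene group here is read. A log2 change of at least 1 was reached by 3117 genes (15.7%), of which 1361 were higher (6.86%) and 1756 lower (8.85%), and a change of at least 3 by 258 genes. The 3 mutant libraries did not overlap the 3 OE libraries for 10428 genes, 52.5% of those tested. The called share grew with expression level, reaching 38.8% of genes with a mean of 1 to 5 FPKM and 56.8% of genes at 100 FPKM or more. Among called genes of 1 to 5 FPKM 40.2% were higher in the mutant, whereas the split was 51.7% at 20 to 100 FPKM.

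The OE libraries lay close to WT for most of these genes. Over all genes tested, 8333 passed between mutant and WT (42%) and 46 between OE and WT (0.232%). Of the 8622 called genes, 6981 (81%) also passed between mutant and WT but not between OE and WT, and 23 (0.267%) passed between OE and WT but not between mutant and WT. Both comparisons with WT passed for 16 genes, 10 of which moved the same way in the mutant and OE and 6 opposite ways. Neither passed for 1602 genes (18.6%), a group made up largely of small differences: it held 1420 of the 5505 called genes that changed by less than 1 on the log2 scale and 182 of the 3117 that changed by more. Genes named below that fall in this group of 1602 include LHCB4, CAB2R, CIN1, ABA8OX3, VIT2, CKX3, D14, AOC, WRKY71, CESA6 and CDKB1-1. Rises and falls given below are those of the mutant relative to OE. Set on a line where 0 is the OE mean and 1 the mutant mean, the WT mean had a median position of 0.066 over the called genes. It lay under 1/3, counted as nearest to OE, for 7117 genes (82.5%) and over 2/3, counted as nearest to the mutant, for 361 (4.19%). These counts include genes whose WT mean lay beyond the OE mean or beyond the mutant mean. The placements share their WT libraries and describe the 3 genotypes jointly, and the number of genes in which OE departs rests on few libraries: it was 42 without OE replicate 1 and 16 without WT replicate 1. The 16 genes in which both passed became 39 and 9 without the same libraries, and the 1602 in which neither passed became 965 without OE replicate 2 and 2405 without WT replicate 1. The 361 genes with WT nearest to the mutant became 545 without OE replicate 1, 230 without OE replicate 2 and 238 without mutant replicate 1.

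**Figure D1:**
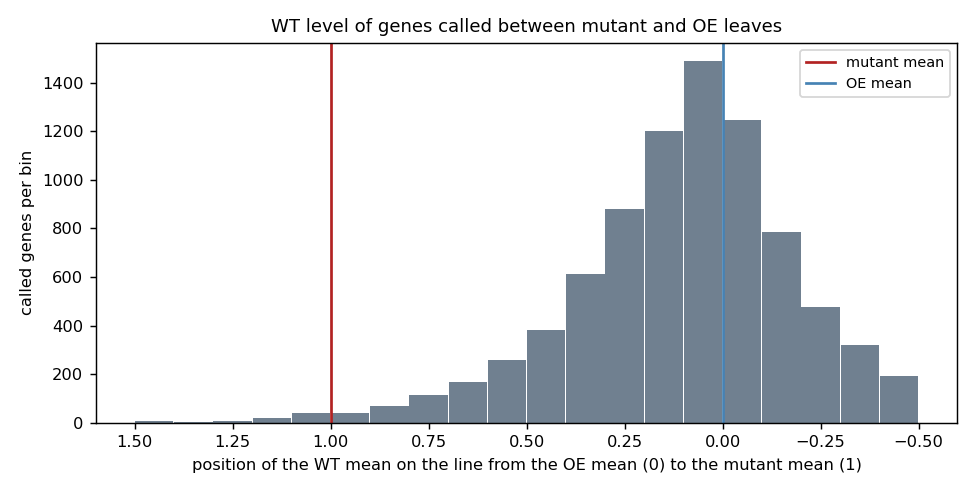
Histogram of the 8622 called genes by where their WT mean lies on the line from the OE mean (0, blue line) to the mutant mean (1, red line); each bar counts the genes in a bin of 0.1, and 302 genes lie outside the plotted range. The bars pile up at the OE line, with 1490 genes between 0 and 0.1 and 39 between 1 and 1.1.

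Clock genes gave some of the most extreme differences. CCA1, a dawn-phase transcription factor of the clock, had 464, 381 and 352 FPKM in the mutant libraries, against 8.37, 8.4 and 7.06 FPKM in OE and 9.01, 6.89 and 9.2 FPKM in WT. LUX, a component of the evening complex, went the other way, with 3.63, 1.36 and 7.74 FPKM in the mutant, against 334, 242 and 292 FPKM in OE and 240 to 266 FPKM in WT. No mutant library came near an OE or WT library for either gene. The changes were 5.48 ± 0.14 for CCA1 (adjusted p = 5.3e-08) and -5.98 ± 0.37 for LUX (adjusted p = 4.2e-06; limma, log2 scale, SE). Of the pseudo-response regulators, which repress the dawn genes in turn, PRR1 fell to 63.7, 51.5 and 70.7 FPKM in the mutant, against 182, 165 and 174 FPKM in OE (-1.48 ± 0.11, adjusted p = 1.3e-05). PRR95 had 352, 237 and 288 FPKM in the mutant, against 724, 555 and 593 FPKM in OE, a fall of 1.1 (adjusted p = 0.0006). The other tested members of the list, PRR37, PRR73, GI and ELF3-1, differed by -0.27 to 0.11 and did not pass. In all, 1 of 8 tested clock genes was higher, 3 were lower and 4 did not pass. Among the red-light receptors PHYC (28.6, 26.6 and 30.9 FPKM in the mutant, against 45.4, 42.3 and 41.3 FPKM in OE) and PHYB (19.3, 19.3 and 22.7 FPKM, against 26.9, 27.6 and 28.9 FPKM) fell, and PHYA did not pass (adjusted p = 0.5). Many genes of the groups that follow are known to follow the clock, and the part of the clock genes' difference, or of the hour of sampling, in those groups was not tested.

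**Figure D2:**
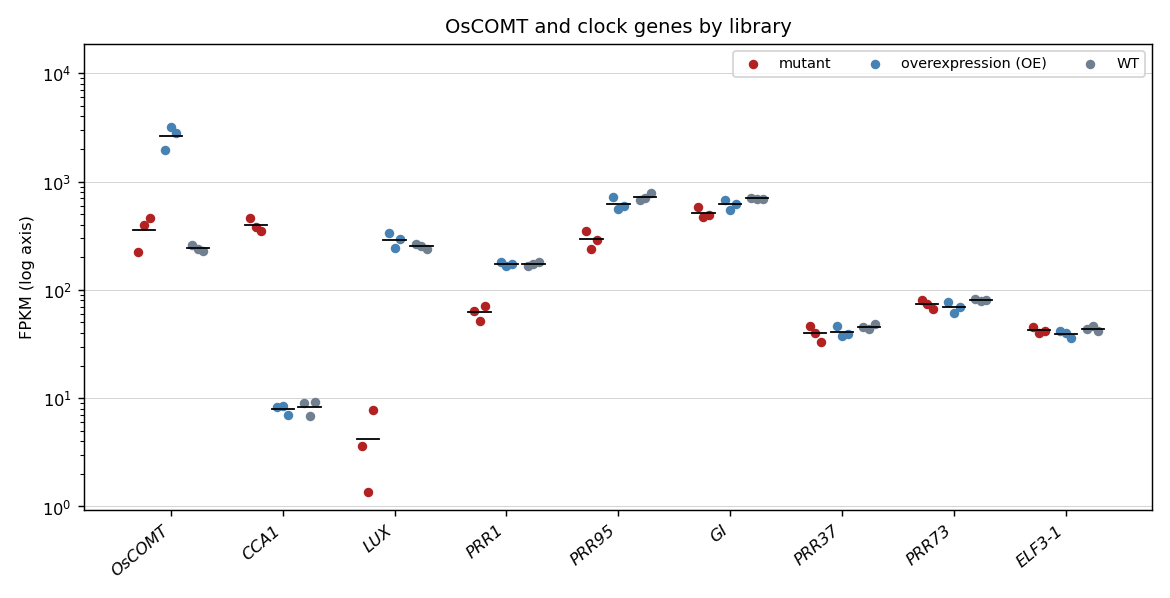
FPKM on a log axis of OsCOMT and the 8 tested clock genes in each library of mutant (red), OE (blue) and WT (grey) leaves; points are libraries and bars are means. OE stands apart for OsCOMT, the mutant stands apart for CCA1, LUX, PRR1 and PRR95, and the other 4 clock genes lie together.

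Of 5 tested genes of carbon fixation 3 were higher in the mutant, among them RCA, the rubisco activase that reopens inhibited rubisco. RCA had 2940, 2587 and 1978 FPKM in the mutant, against 174, 227 and 111 FPKM in OE and 184 to 198 FPKM in WT, a rise of 3.91 ± 0.24 (adjusted p = 4.0e-06). ALDP, the chloroplast aldolase of the Calvin cycle, had 1850, 1714 and 1429 FPKM in the mutant, against 325, 352 and 194 FPKM in OE, a rise of 2.55 (adjusted p = 2.4e-05). FBPase, a fructose bisphosphatase gene, rose by 0.86 (adjusted p = 0.00047). RBCS, a small subunit gene of rubisco, did not pass (61.3, 27.2 and 30.2 FPKM in the mutant, against 65.1, 64.8 and 29.5 FPKM in OE), nor did RPE (0.07, adjusted p = 0.56), so that no tested Calvin cycle gene was lower. The antenna and photosystem genes, which harvest the light, did not share this direction. LHCB4, a minor antenna protein, had 392, 441 and 423 FPKM in the mutant, against 1369, 1304 and 650 FPKM in OE, a fall of 1.33 (adjusted p = 0.01). CAB2R fell by 1.78 (adjusted p = 0.016), with 290, 623 and 313 FPKM in the mutant, against 1951, 1280 and 921 FPKM in OE. That call was lost without OE replicate 1 (adjusted p = 0.057), mutant replicate 1 (0.058) or mutant replicate 3 (0.051). WT libraries ran from 463 to 1794 FPKM. The other tested antenna genes, LHCB2 and CAB1R, did not pass, and LHCB2 fell by 0.50 without OE replicate 3 (adjusted p = 0.025). Only identifiers with a matched gene name were counted, so these lists are partial. They kept 4 of 16 antenna, 5 of 16 Calvin cycle and 6 of 21 photosystem identifiers. Of 6 tested photosystem genes, PSB28, an assembly factor of photosystem II, rose (112, 83.4 and 96.8 FPKM in the mutant, against 40.9, 35.4 and 24.6 FPKM in OE; adjusted p = 0.00024), LFNR1, a ferredoxin-NADP reductase, fell by 0.96 (adjusted p = 0.0017), and 4 did not pass. PSBQ and PSAH were lower on average in the mutant but missed the threshold (adjusted p = 0.052 and 0.062). Without OE replicate 3, the OE library with the lowest values of both, they passed (adjusted p = 0.011 for PSBQ and 0.012 for PSAH). In photorespiration GLO4, a glycolate oxidase gene, fell by 1.25 (adjusted p = 0.00018), and the other 4 of 5 tested genes did not pass.

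Chlorophyll synthesis genes split. HEMB, which makes porphobilinogen early in the pathway, had 115, 104 and 107 FPKM in the mutant, against 18.7, 26.4 and 19.1 FPKM in OE and 15.5 to 20.6 FPKM in WT (2.31 ± 0.14, adjusted p = 4.0e-06). CAO1, the oxygenase that makes chlorophyll b, had 194, 175 and 158 FPKM in the mutant, against 58.1, 62.4 and 45.1 FPKM in OE (1.66, adjusted p = 1.1e-05). CHLH, the porphyrin-binding subunit of magnesium chelatase, rose by 1.22 (adjusted p = 0.00097). PORA, the light-dependent protochlorophyllide reductase of early greening, was nearly absent from the mutant: 0.665, 4.54 and 1.04 FPKM, against 99.8, 72.3 and 43.6 FPKM in OE and 66.5 ± 40.1 FPKM (SD, n = 3) in WT (-4.70 ± 0.58, adjusted p = 0.00021). Of 11 tested genes 5 were higher, 3 lower and 3 did not pass. In chlorophyll breakdown, SGR, the magnesium dechelatase also known as stay-green, had 322, 227 and 243 FPKM in the mutant, against 37.7, 33.6 and 80.1 FPKM in OE, a rise of 2.46 (adjusted p = 0.004). NYC1, a chlorophyll b reductase, fell by 0.84 (adjusted p = 0.0028) while NOL, its partner in the same reaction, rose by 0.82 (adjusted p = 0.0051), and the other 2 of 5 tested genes did not pass.

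Among genes of nitrogen assimilation, 1 nitrate reductase and 2 of 3 tested glutamine synthetase genes were higher in the mutant, and 1 glutamate synthase gene was lower. NIA1, a nitrate reductase, had 58.1, 57.5 and 51.9 FPKM in the mutant, against 6.12, 1.7 and 2.92 FPKM in OE and 4.33 to 6.51 FPKM in WT (3.75 ± 0.30, adjusted p = 1.5e-05). GLN1-1, a cytosolic glutamine synthetase, had 612, 652 and 604 FPKM in the mutant, against 237, 261 and 255 FPKM in OE and 311 to 335 FPKM in WT (1.31 ± 0.09, adjusted p = 7.3e-06). GLN2, the chloroplast form, rose by 0.87 (adjusted p = 0.0021). The other cytosolic form tested, GLN1-2, averaged 40.1 FPKM in the mutant and 34.8 FPKM in OE and did not pass (0.16, adjusted p = 0.59). NADH-GOGAT2, a glutamate synthase that uses NADH, fell to 0.784, 1.26 and 0.818 FPKM in the mutant, against 19.6, 16.4 and 14.3 FPKM in OE and 12 to 26.6 FPKM in WT (-3.18 ± 0.25, adjusted p = 1.5e-05). Of 8 tested genes 4 were higher, 1 lower and 3 did not pass. The ammonium transporter AMT1-1 had 48, 52 and 39.2 FPKM in the mutant, against 9.04, 6.76 and 8.58 FPKM in OE (2.38, adjusted p = 3.8e-06), whereas AMT2-1, of a separate transporter subfamily, had 3.25, 3.64 and 4.32 FPKM, against 8.23, 9.28 and 10.7 FPKM (-1.13, adjusted p = 0.00013). The third tested transporter, NRT2.3, did not pass.

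Sugar transport and starch genes were mostly higher in the mutant than in OE. SWEET2B, of the SWEET family of sugar transporters, had 124, 83.2 and 76.1 FPKM in the mutant, against 0.657, 0.559 and 1.96 FPKM in OE and 0.376 to 0.997 FPKM in WT (5.56 ± 0.27, adjusted p = 1.3e-06). SWEET13, a sucrose exporter, had 68.7, 64.3 and 40.1 FPKM in the mutant, against 5.74, 7.51 and 6.36 FPKM in OE (2.93, adjusted p = 6.2e-06). The proton-coupled sucrose carriers SUT1 (139, 135 and 132 FPKM in the mutant, against 46.6, 29.8 and 40.6 FPKM in OE) and SUT2 (97.9, 88.3 and 105 FPKM, against 42.3, 39.6 and 42.4 FPKM) rose by 1.79 and 1.20. SWEET4 was the one member that fell (18.2, 29.7 and 19.4 FPKM in the mutant, against 75.1, 65.7 and 65.4 FPKM in OE; adjusted p = 0.00019), and it is named for that after its values were seen. Of 10 tested transporters 6 were higher, 1 lower and 3 did not pass, with a median change of 0.79 against -0.02 over all genes. Against WT, 4 of the 10 were higher in the mutant and 2 lower, with a median of 0.26. The median of OE against WT was -0.31, and 0 transporters passed there. In the list of starch synthesis and breakdown 5 of 6 tested genes were higher and 0 lower (1 was lower without mutant replicate 3). SSI, the starch synthase of short chains, had 51.5, 69.7 and 67.4 FPKM in the mutant, against 14, 6.43 and 10.1 FPKM in OE (2.56, adjusted p = 3.0e-05). SBE1, a branching enzyme, SSIIB, a leaf starch synthase, and AGPS2, a small subunit of ADP-glucose pyrophosphorylase, rose by 0.76, 0.83 and 0.74. The enzymes of sucrose turnover differed by less: SPS8, a sucrose phosphate synthase, rose by 0.37 (adjusted p = 0.0041) and SUS2, a sucrose synthase, fell by 0.66 (adjusted p = 0.0064). The invertase gene CIN1 fell by 0.70 (adjusted p = 0.029), a call that each mutant library and OE replicates 2 and 3 ended when left out (adjusted p 0.052 to 0.097), and SUS4 did not pass.

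**Figure D3:**
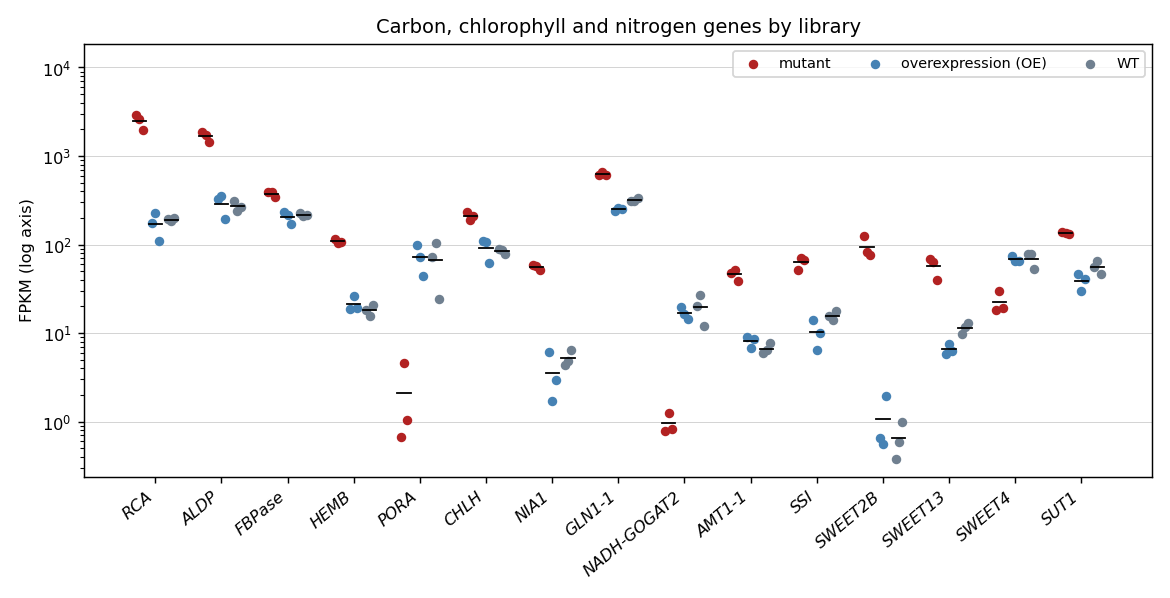
FPKM on a log axis of 15 genes of carbon fixation, chlorophyll synthesis, nitrogen assimilation, starch and sugar transport in each library of mutant (red), OE (blue) and WT (grey) leaves; points are libraries and bars are means. OE and WT lie together for most of the genes drawn, and the mutant lies above them for all except PORA, NADH-GOGAT2 and SWEET4, where it lies below. The genes drawn were picked from those that passed between mutant and OE, so the separation of these genotypes follows from that choice. Members of the same lists that did not pass, such as RBCS and RPE, and the lower genes GSA and CHLI are not drawn.

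Aquaporins, the water channels of the plasma membrane (PIP) and the vacuole (TIP), were mostly higher: 8 of 10 tested rose in the mutant, 1 was lower and 1 did not pass, and the median change was 1.94. PIP2-1 had 591, 651 and 527 FPKM in the mutant, against 68.9, 58.2 and 51.9 FPKM in OE and 54.8 to 63.9 FPKM in WT (3.29 ± 0.12, adjusted p = 6.2e-07). PIP1-1 had 391, 449 and 380 FPKM in the mutant, against 141, 118 and 121 FPKM in OE, and PIP1-2 had 74.5, 76.3 and 70.9 FPKM, against 21.3, 21.2 and 18 FPKM. TIP1-1 had 113, 108 and 72 FPKM in the mutant, against 19.7, 11.3 and 12.2 FPKM in OE (2.69, adjusted p = 4.1e-05). PIP2-7 was the member that fell (106, 108 and 154 FPKM in the mutant, against 222, 203 and 264 FPKM in OE; adjusted p = 0.0015), named for that after its values were seen. These genes and the small heat shock genes belong to families of similar sequence, in which reads can be assigned to a neighbouring copy.

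Genes of the dehydration response were also mostly higher. BZIP23, a transcription factor of abscisic acid signalling, had 48.7, 43.6 and 31.5 FPKM in the mutant, against 8.11, 8.31 and 10.5 FPKM in OE (2.07 ± 0.16, adjusted p = 1.5e-05). LEA3, a protective late embryogenesis abundant protein, had 18.5, 40.8 and 11.1 FPKM in the mutant, against 0.0664, 0.145 and 0.0687 FPKM in OE and 0 FPKM in each WT library (4.29 ± 0.36, adjusted p = 2.1e-05). NAC5, a stress transcription factor, rose by 1.22 (adjusted p = 0.00098). DREB1B, a cold and drought factor, went the other way, with 0.103, 0.209 and 0 FPKM in the mutant, against 3.02, 1.86 and 4.69 FPKM in OE (-1.87, adjusted p = 0.00098). It rested on 3 reads in the mutant and 98 in OE, a ratio of 31.4 with a 95% counting interval of 10.4 to 155. Of 10 tested members 7 were higher, 2 lower and 1 did not pass. A gene such as LEA3 or SWEET2B reached the filter of 1 FPKM only through the mutant libraries, so such members could enter the test only as differing genes, and the lists' counts are descriptions. Abscisic acid breakdown split, as ABA8OX2 fell by 0.54 (adjusted p = 0.0037) and ABA8OX3, the second hydroxylase tested, rose by 0.81 (adjusted p = 0.022). Leaving out any of OE replicates 1 and 3 and mutant replicates 1 and 3 ended the ABA8OX3 call (adjusted p 0.056 to 0.076).

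Heat shock genes were mostly higher in the mutant, with wide spread between its libraries. HSP17.4, a small cytosolic chaperone, had 31.6, 58.5 and 13.3 FPKM in the mutant, against 1.24, 1.11 and 1.63 FPKM in OE and 1.25 to 2.09 FPKM in WT (3.71 ± 0.42, adjusted p = 0.00011). HSP24.1 had 104, 165 and 25.3 FPKM in the mutant, against 6.18, 6.09 and 6.16 FPKM in OE (3.43 ± 0.53, adjusted p = 0.00075). HSP17.7 and the heat shock factor HSFA2D rose by 2.71 and 2.17 (adjusted p = 0.0037 and 0.0015). HSP17.7, with means of 0.666 FPKM in OE and 0.704 FPKM in WT, reached the filter of 1 FPKM only through the mutant libraries. It could therefore enter the count of this list only as a higher gene. Mutant replicate 2 was the highest and replicate 3 the lowest for each of the 3 chaperones, while every mutant library stayed above every OE library. Of 8 tested genes 6 were higher, 0 lower and 2 did not pass, with a median change of 2.2. HSP16.9A and HSP16.9B, which the name table pairs with 1 and the same gene, were left out of this count. Neither passed (0.58 and 0.36, adjusted p = 0.55 and 0.65), and with them 6 of 10 were higher and the median was 1.86.

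Phosphate genes moved mostly downward, with 2 of 8 tested members higher, 5 lower and 1 not passing, and a median change of -1.08. The uptake transporter PT1 had 14.5, 23.2 and 20.1 FPKM in the mutant, against 80, 126 and 105 FPKM in OE and 92.5 to 134 FPKM in WT (-2.37 ± 0.22, adjusted p = 3.3e-05). PT8 had 7.62, 14.1 and 11.3 FPKM in the mutant, against 37.4, 39.8 and 44.4 FPKM in OE (-1.82, adjusted p = 9.0e-05), and SPX2, a sensor protein that restrains the phosphate starvation response, fell by 1.58 (adjusted p = 0.00045). PHO1-2, which exports phosphate toward the xylem, was higher, with 17.1, 11.7 and 13.6 FPKM in the mutant, against 1.34, 2.05 and 1.47 FPKM in OE (2.52, adjusted p = 6.2e-06). The count of 2 higher members was 1 without OE replicate 2. Of 4 tested iron genes, IRO3, a repressor of iron uptake genes, rose by 1.13 (adjusted p = 0.00076). VIT2, a vacuolar iron transporter, was lower than in OE by 2.32 (adjusted p = 0.0099). It had 1.87, 11 and 16.3 FPKM in the mutant, against 39.2, 40.6 and 43.6 FPKM in OE. WT libraries had 12.3, 17.6 and 31.7 FPKM, and neither genotype passed against WT (limma, adjusted p = 0.11 for the mutant and 0.58 for OE).

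**Figure D4:**
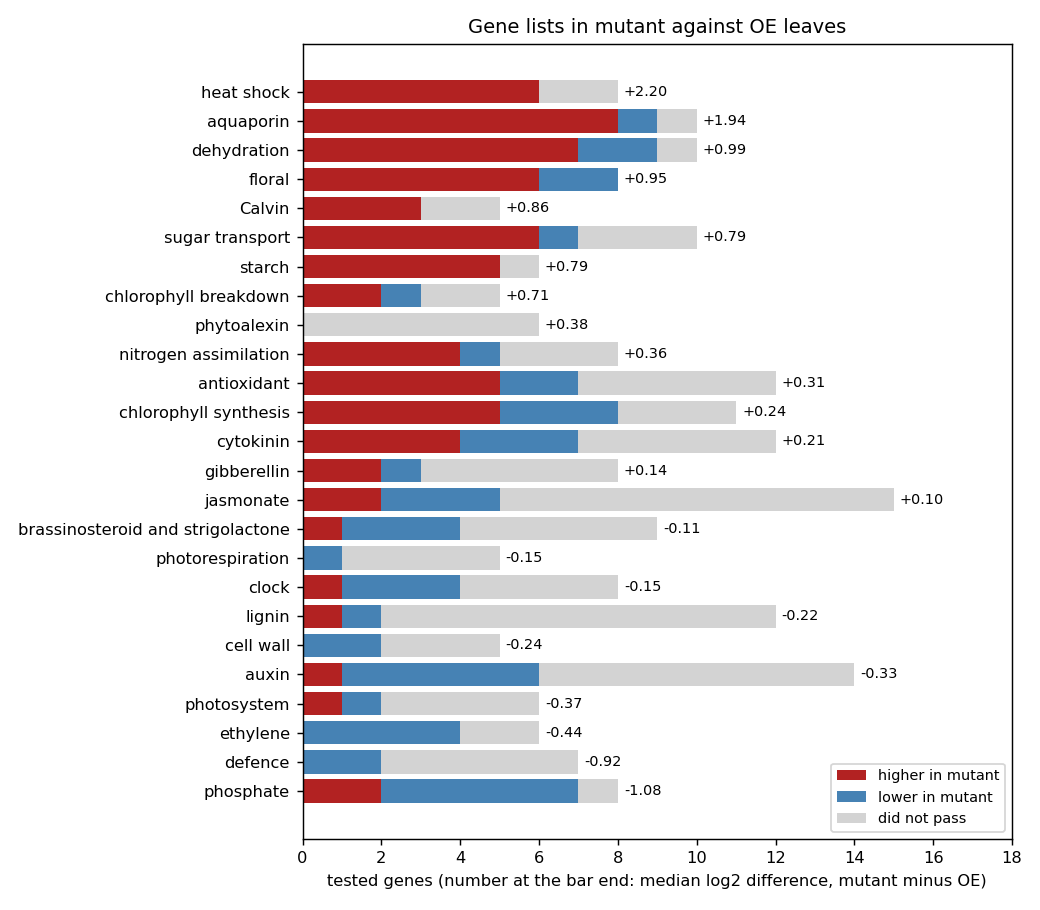
Number of tested genes in each list of at least 5 that were higher in mutant leaves (red), lower in mutant leaves (blue) or did not pass (grey), with the median log2 difference, mutant minus OE, at the end of each bar. Lists are ordered by that median, and heat shock genes stand at the top with 2.2, followed by aquaporins with 1.94, and phosphate genes stand at the bottom with -1.08.

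Of the auxin genes, GH3.2, which conjugates and so inactivates auxin, had 44.7, 44.1 and 35.5 FPKM in the mutant, against 2.65, 1.88 and 3.37 FPKM in OE and 0.48 to 3.42 FPKM in WT (3.56 ± 0.35, adjusted p = 4.9e-05). The AUX/IAA repressors IAA13 (26.5, 36.1 and 33 FPKM in the mutant, against 76.6, 64.6 and 59 FPKM in OE), IAA17 and IAA5 fell by 1.05, 1.09 and 0.66, and of 14 tested auxin genes 1 was higher, 5 were lower and 8 did not pass. In cytokinin metabolism the oxidases CKX4 (102, 72 and 52.2 FPKM in the mutant, against 18.8, 16.2 and 18.7 FPKM in OE) and CKX11 (36.6, 52 and 36.3 FPKM, against 5.21, 4.29 and 8.52 FPKM) rose by 1.97 and 2.63. RR1, a response regulator, rose by 0.61 and the oxidase CKX3 was lower than in OE by 0.74. For CKX3 WT stood beside the mutant, with means of 0.697 FPKM in the mutant, 1.83 FPKM in OE and 0.903 FPKM in WT. The list of 12 tested genes had 4 higher, 3 lower and 5 not passing. Against WT, 6 of the 12 were higher in the mutant and 0 lower, and 0 passed between OE and WT. The count of 3 lower cytokinin genes dropped to 1 without OE replicate 1, OE replicate 2 or mutant replicate 3.

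The ethylene receptors ETR2, ERS2 and ETR3 fell by 1.29, 0.63 and 0.64 (adjusted p = 3.2e-05, 0.0036 and 0.0039). ETR2 had 3.27, 4.14 and 3.34 FPKM in the mutant, against 9.66, 9.91 and 10.9 FPKM in OE. The downstream transcription factor EIL1 fell by 0.25 (adjusted p = 0.031). It no longer passed when OE replicate 1, OE replicate 3, mutant replicate 1 or mutant replicate 2 was left out (adjusted p 0.064 to 0.11). No tested ethylene gene was higher, 4 of 6 were lower and 2 did not pass. For gibberellin, GA20OX2, the semidwarf SD1 gene of gibberellin synthesis, had 54.3, 61.2 and 55.7 FPKM in the mutant, against 29, 18.1 and 20.7 FPKM in OE (1.32, adjusted p = 0.00055). The receptor GID1 rose by 0.53 (adjusted p = 0.00056) and the F-box protein GID2 fell by 0.42 (adjusted p = 0.013), and 5 of 8 tested gibberellin genes did not pass. DWARF4, which starts brassinosteroid synthesis, had 2.43, 3.06 and 3.91 FPKM in the mutant, against 11.5, 12.4 and 15.4 FPKM in OE (-1.77, adjusted p = 6.7e-05). BRD1, a later enzyme of the route, rose by 1.43 (adjusted p = 0.0088), and the strigolactone receptor D14 fell by 0.91 (adjusted p = 0.0056). D11 fell by 0.42 (adjusted p = 0.02), a call lost without OE replicate 1 (adjusted p = 0.059) or mutant replicate 1 (adjusted p = 0.053). Of 9 tested genes of these 2 hormones 1 was higher, 3 were lower and 5 did not pass, and 2 were higher without mutant replicate 2.

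Of 15 tested jasmonate genes 2 were higher, 3 lower and 10 did not pass. The 2 jasmonate receptors went opposite ways: COI1A had 69.8, 66.1 and 71.1 FPKM in the mutant, against 46.3, 42 and 40.7 FPKM in OE (0.67, adjusted p = 0.00013), and COI1B had 47.7, 49.7 and 58 FPKM, against 71.2, 77.7 and 65.4 FPKM (-0.46, adjusted p = 0.0064). The repressor JAZ4 rose by 0.80 (adjusted p = 0.0051). AOC, an enzyme of jasmonate synthesis, fell by 0.45 (adjusted p = 0.016), a call lost without OE replicate 3 or mutant replicate 1 (adjusted p = 0.054 for both). The jasmonate counts depend on the OE libraries, with 4 higher without OE replicate 3 and 5 lower without OE replicate 1. NPR1, the salicylate co-regulator, had 3.74, 7.75 and 5.91 FPKM in the mutant, against 14.7, 17.8 and 20.4 FPKM in OE and 14.3 to 20.7 FPKM in WT (-1.49 ± 0.23, adjusted p = 0.00069). WRKY71 fell by 1.15 (adjusted p = 0.0067). Of 7 tested defence genes 0 were higher, 2 lower and 5 did not pass. WRKY62 was among these 5 (adjusted p = 0.14), and it passed without OE replicate 1 (-1.74, adjusted p = 0.028). None of 6 tested phytoalexin genes passed. KSL7, a diterpene synthase, ran from 1.35 to 41.3 FPKM within the mutant and from 0.304 to 11.6 FPKM within OE. It passed only when mutant replicate 1, the lowest of its genotype, was left out (3.30, adjusted p = 0.011), and CPS2 passed only without mutant replicate 2 (-1.62, adjusted p = 0.046). For PBZ1, a pathogenesis-related protein, replicate 1 was lowest in both genotypes (101 FPKM in the mutant and 118 FPKM in OE), and the other libraries held 342 to 778 FPKM.

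The phenylpropanoid route around OsCOMT showed few differences. Of 12 tested monolignol genes 1 was higher in the mutant, 1 was lower, which is OsCOMT itself, and 10 did not pass; 3 were lower without OE replicate 1 and 2 without mutant replicate 3. The gene that rose was 4CL2, a 4-coumarate:CoA ligase, with 12, 8.02 and 22 FPKM in the mutant, against 0.37, 0.445 and 1.95 FPKM in OE and 0.344 to 2.09 FPKM in WT (2.95 ± 0.43, adjusted p = 0.00054). Its means of 0.923 FPKM in OE and 1.04 FPKM in WT lay about the filter of 1 FPKM, so its entry into the test leaned on the mutant libraries. The other 3 tested ligases differed by -0.33 to -0.08 and did not pass. CAD6, an alcohol dehydrogenase of the route, passed only without OE replicate 1 (-1.1, adjusted p = 0.035), and HCT2 only without mutant replicate 3 (-1.0, adjusted p = 0.047). Replicate 1 was the lowest library for PAL1, which opens the route, in the mutant (30.6 FPKM, against 60.7 and 71.8) and in OE (41.5 FPKM, against 92.6 and 74.8). CHS1, chalcone synthase, the first enzyme of flavonoid synthesis and a user of the product of 4-coumarate:CoA ligases, had 65.5, 38.8 and 122 FPKM in the mutant, against 3.81, 3.96 and 15.5 FPKM in OE and 5.17 to 28 FPKM in WT (3.23 ± 0.66, adjusted p = 0.0036). Of the 4 tested melatonin genes only ASMT1, the acetylserotonin methyltransferase, passed. It had 8.48, 12.9 and 4.97 FPKM in the mutant, against 1.45, 1.2 and 2.51 FPKM in OE (1.79 ± 0.33, adjusted p = 0.0019). TDC2, T5H and SNAT1 differed by 0.02 to 0.10. Of 5 tested cellulose synthase genes CESA2 and CESA6 were lower by 0.57 and 0.53 (adjusted p = 0.026 and 0.02), with levels under 4 FPKM. The CESA2 call ended on leaving out OE replicates 1 or 3, or mutant replicates 1 or 2 (adjusted p 0.059 to 0.084), and that of CESA6 without OE replicate 3 or mutant replicate 1 (adjusted p = 0.065 and 0.069).

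Antioxidant genes changed in both directions. The catalase CATB had 62.8, 63.7 and 59.3 FPKM in the mutant, against 98.6, 114 and 112 FPKM in OE (-0.79 ± 0.08, adjusted p = 5.9e-05). The cytosolic ascorbate peroxidase APX2 had 1523, 1316 and 1292 FPKM in the mutant, against 710, 834 and 682 FPKM in OE (0.89, adjusted p = 0.00086). The copper-zinc superoxide dismutase SODCC1 rose by 1.22 and the ascorbate peroxidase APX6 by 0.49. Of 12 tested genes 5 were higher, 2 lower and 5 did not pass, and the 5 higher became 3 without OE replicate 1, OE replicate 3 or mutant replicate 3, and the 2 lower became 1 without OE replicate 2.

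Every tested gene of the floral list passed, although 10 of its 18 members fell below the filter. MADS18, a meristem identity gene that leaves also express, had 115, 103 and 110 FPKM in the mutant, against 50.6, 40.4 and 40.4 FPKM in OE and 50.9 to 64.9 FPKM in WT (1.31 ± 0.12, adjusted p = 4.0e-05). MADS16 had 34.2, 32.5 and 32.3 FPKM in the mutant, against 11, 4.37 and 9.44 FPKM in OE (1.95, adjusted p = 0.00025), and MADS1 rose by 1.05 (adjusted p = 0.00064). HD3A, the florigen, had 1.41, 2.32 and 0.531 FPKM in the mutant, against 10.5, 11 and 6 FPKM in OE and 17.2 to 36.5 FPKM in WT (-2.10 ± 0.36, adjusted p = 0.0013). Here the OE libraries stood between mutant and WT. Of 8 tested genes 6 were higher and 2 lower, and the 6 became 3 without mutant replicate 1. Against WT, 3 of the 8 were higher in the mutant and 2 lower, and 0 passed between OE and WT. The median change was 0.95 between mutant and OE and 0.11 between mutant and WT. Both tested cell division genes were lower by 0.28 to 0.35, CDKB1-1 at an adjusted p of 0.041 and PCNA at 0.044. Neither call was stable: that of CDKB1-1 was lost without any 1 library except mutant replicate 2 (adjusted p 0.055 to 0.13), and that of PCNA without any 1 mutant or OE library or WT replicate 3 (adjusted p 0.059 to 0.12). The 2 grain storage genes tested, GLUA1 and GLUA2, did not pass.

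In 23 of the genes called between mutant and OE, only OE passed against WT, and 18 of these were lower in the mutant than in OE. The 23 are a part of the 46 genes that passed between OE and WT. Chromosome 11 held 13 of the 23 (56.5%), against 5.65% of all tested genes, and these 13 lay between Os11g0200950 and Os11g0226800, an interval of 75 tested genes whose ends were set by the genes themselves. Without OE replicate 1, 14 of 42 such genes were on chromosome 11 (33.3%), and without WT replicate 1, 10 of 16 (62.5%). Os11g0206000, the lowest of all called genes, had no read in the mutant libraries, against 128, 104 and 119 FPKM in OE and a single WT library with 0.097 FPKM. With 0 reads set to a floor of 3 reads over the group, it was at least 2250-fold lower in the mutant. A gene of chromosome 4 had no read in any mutant or WT library, against 23.5, 15.8 and 12.1 FPKM in OE. Both of these genes reached the filter only through the OE libraries. In the other direction, a gene of chromosome 9 had 35, 31.9 and 34 FPKM in the mutant, against 3.02, 1.86 and 5.66 FPKM in OE and 32.3 to 40.2 FPKM in WT, so OE was the low genotype there. One further chromosome 11 gene was read in all mutant (148 to 376 reads) and WT libraries (898 to 1230 reads) and had 0 reads in the 3 OE libraries.

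The longest run of neighbouring tested genes higher in the mutant held 7 genes, on chromosome 3. The longest run of lower genes held 20, from Os11g0225300 to Os11g0229600, and it changed its kind along the way. In its first part the OE leaves departed: 6 genes had means of 3.78 to 68.1 FPKM in OE, against 0 to 10.6 FPKM in the mutant and 0 to 15 FPKM in WT. From Os11g0226933 on, the mutant departed in 11 genes, with means of 0.187 to 49 FPKM in the mutant, against 2.42 to 154 FPKM in OE and 2.64 to 158 FPKM in WT. Both departed in 2 genes and neither passed in 1. A window of 20 neighbouring tested genes held a median of 1 gene that was lower by at least 1 on the log2 scale, and the window over this run held 17. Of the 20 genes of the run, 9 had a mutant mean under 1 FPKM, and 4 of these had no read in any mutant or WT library. Such genes reached the filter only through libraries in which they were higher, so they could enter only as lower genes. The 11 genes with a mutant mean of at least 1 FPKM include 9 of the 17. The next windows for lower genes held 12 genes on chromosome 7 (Os07g0532500 to Os07g0539900), 10 on chromosome 6 and 9 at Os11g0661101 to Os11g0671100, and nearly all of these were genes in which the mutant departed. Windows for higher genes held at most 8. By chromosome, 39.9% (chromosome 4) to 47% (chromosome 1) of tested genes were called. Of the called genes 37.4% were higher in the mutant on chromosome 11 and 38.1% on chromosome 12, against 45.2% to 51.1% on the other chromosomes.

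**Figure D5:**
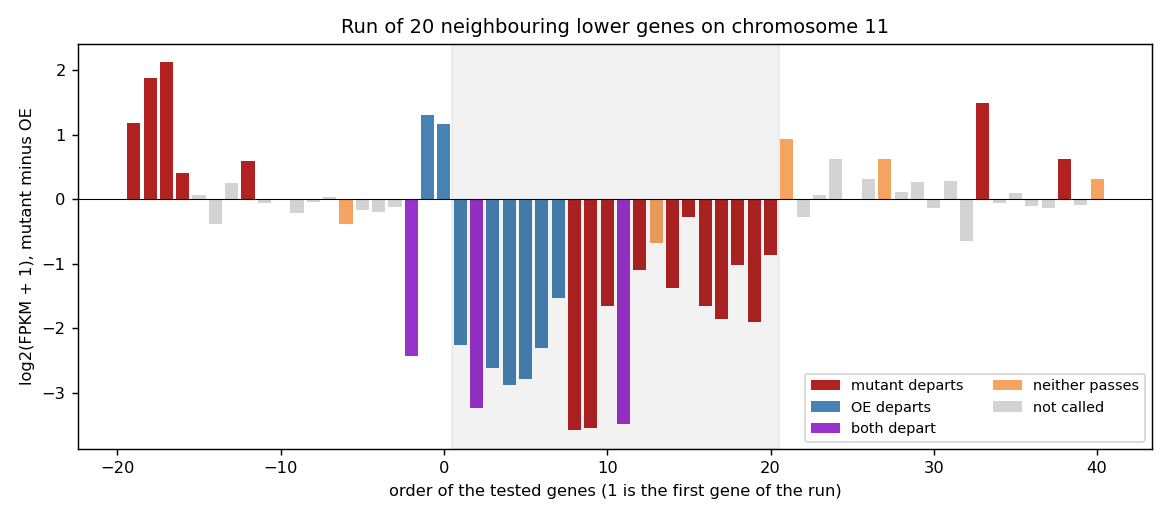
Log2(FPKM + 1) difference, mutant minus OE, of 60 neighbouring tested genes of chromosome 11 in their order, with the run of 20 lower genes shaded; colours give which genotype departed from WT. Blue bars (OE departs) fill the start of the run, and red bars (mutant departs) most of the rest.

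Outside the lists, the called genes with the largest rise were Os06g0661200 and Os12g0189300. Os06g0661200 had 155, 115 and 120 FPKM in the mutant, against 0.986, 0.479 and 1.02 FPKM in OE and 0.552 to 2.42 FPKM in WT (6.17 ± 0.28, adjusted p = 9.3e-07). Os12g0189300 had 112, 93.6 and 81.7 FPKM in the mutant, against 1.08, 0.471 and 0.946 FPKM in OE (5.73 ± 0.19, adjusted p = 3.2e-07). With means of 0.831 FPKM in OE and 0.531 FPKM in WT, it reached the filter only through the mutant libraries, so it could enter only as a higher gene. The second lowest, Os01g0922700, had 0.89, 1.45 and 1.22 FPKM in the mutant, against 342, 119 and 169 FPKM in OE and 147 to 298 FPKM in WT (-6.46 ± 0.36, adjusted p = 2.5e-06). For these 3 genes WT stood beside OE, and the tables used here pair none of them with a name.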

How the data were processed

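Leaf RNA libraries were prepared with an Illumina TruSeq kit according to the labels' protocols. The deposited values are FPKM, 1 per gene and library. Bowtie 0.12.2, Cuffdiff and the build IRGSP-1.0 appear in the submitters' processing notes, which give no role for each. Replicates were not pooled. The table's 1 further per-sample column matches no sample and was not used. Reads of overlapping genes cannot be told apart, since no strand is stated.

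The FPKM resolved into whole reads for 30062 of 30062 genes above 0 (relative tolerance 3e-07). This gave library totals, zero counts and counting intervals (exact binomial, 95%), which cover counting error only. Genotypes were compared with limma (version 3.58.1, R version 4.3.3) with a pseudocount of 1 before taking log2, all 9 libraries in 1 fit with 3 groups, empirical Bayes with trend, two-sided, and Benjamini-Hochberg adjustment over the 19850 genes averaging 1 FPKM or more, at a threshold of 0.05. The pseudocount makes the changes of low genes look smaller than they are. A gene differed from WT where the same fit passed. limma with voom weights on the recovered reads called 8493 genes, 8310 of them shared with that test.

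Of 523 list identifiers, from general knowledge, 347 were used: those whose name or alias RefSeq (assembly ASM3414082v1) holds on the same chromosome within 0.03 of the same relative rank. Identifiers that claimed the same RefSeq gene (AMT1-2 with AMT1-3, HSP16.9A with HSP16.9B) were left out. Of those used, 245 passed the filter, and these are the tested members of the lists. Identifiers left out are not counted in the lists, whatever their values. Members and lists were chosen with earlier results of these data known. Named were OsCOMT and its tested neighbours, up to 4 members of smallest p in each list, and the 2 highest and 2 lowest genes overall and among those in which OE departs; others are said to be chosen later. Chi-square per gene between 2 libraries of 1 genotype was 6.14 to 16.6, beyond counting noise for each pair.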

Additional observations from a re-analysis of the deposited data

How the results depend on the processing

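Over 20 other settings the number of genes called between mutant and OE leaves stayed between 6680 and 9086, and every call shared with the 8622 kept its direction. These ends came from other numbers of tested genes: 14722 with a filter of 5 FPKM and 30062 with no filter. With the same 19850 genes tested, the count ran from 7116 (without mutant replicate 1) to 8693 (upper-quartile scaling). OsCOMT was lower in the mutant under each setting, by -3.11 to -2.60. A pseudocount of 5 in place of 1 left 1748 genes called with a log2 change of at least 1. The small placement classes moved most: both genotypes departed from WT in 25 genes with array weights, and OE departed in 12 when only genes averaging 5 FPKM or more were tested. When single libraries were left out, the genes in which OE departs ranged from 16 to 42, those in which both depart from 9 to 39, those in which neither passes from 965 to 2405, and those with WT beside the mutant from 230 to 545. Replicate numbers were shared across genotypes. The deviations of same-numbered mutant and OE libraries from their own genotype means correlated at only 0.21, 0.08 and 0.03, so these libraries were not treated as pairs. With the replicate number as a block 8543 genes were called. PSBQ and PSAH then passed and CIN1 did not (adjusted p = 0.051). By the same deviations from the genotype means, every library correlated best with its own number except mutant replicate 3 and OE replicate 2. Of 140 results on named genes, 8 changed sign under some setting, each near 0 or widely spread and not called between mutant and OE. T5H gave -0.14 with array weights, -0.02 with a pseudocount of 5 and -0.50 to 0.37 with single libraries left out. YSL2 gave -0.08 with array weights, -0.003 with a pseudocount of 0.1 and -0.21 to 0.17 with libraries left out. Leaving out libraries gave -0.04 to 1.26 for MAS1, -0.09 to 0.24 for GLUA1, -0.10 to 0.11 for SNAT1, -1.62 to 0.11 for CPS2, -0.22 to 0.0035 for GLO1 and -0.27 to 0.23 for CHI. The cause was not tested for any of these. Fold changes of genes under about 5 FPKM rest on few reads and depend most on the pseudocount.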
